A study of Mus musculus with 6 samples.

Results

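Monocytes and tissue-resident macrophages are neighbouring states of the mononuclear phagocyte lineage, and 10 genes that mark one or the other were followed here across leukaemias with and without Phf6. The monocyte set has 6 genes (Ly6c2, F13a1, Ctss, Lyz2, Csf1r and Cd68) and the resident macrophage set has 4 (C1qa, C1qb, C1qc and Mertk). They were taken by gene symbol from a table of 23306 genes, where each symbol matched 1 row, and all 10 passed the filter on low values. The samples were isogenic T-cell acute lymphoblastic leukaemias (T-ALL) of C57BL/6 mice, harvested from bone marrow and measured as polyA RNA, with 3 libraries of Phf6 wild type (WT) and 3 of Phf6 knockout (KO). Phf6, which lies on the X chromosome and encodes a nuclear protein with PHD fingers, was deleted by a Cre recombinase that tamoxifen induces, and corn oil was the vehicle. The sources used here name neither the Cre line nor the age of the mice, and the tumours of both groups are described as isogenic. Drug exposure and gene loss cannot be told apart if the vehicle went to the WT group alone. The labels do not say that the libraries of a group came from separate animals, so p-values measure only the spread between these libraries.

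Monocytes are made in the bone marrow from granulocyte-monocyte progenitors, enter the blood and can mature into macrophages in tissue. The classical subset in the mouse carries Ly6C on its surface. Resident macrophages live in a tissue for long periods, and in bone marrow they engulf dying cells and the nuclei that erythroblasts expel. Typical genes of that state encode complement component C1q and receptors for apoptotic cells such as MerTK. Several of the monocyte genes chosen here, among them Lyz2, Ctss and Cd68, are also active in macrophages, and Lyz2 is active in neutrophils too, so the 2 sets lie along one continuum and are not exclusive markers.

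Sequence upstream of the start site is shown for 3 pairs of neighbouring genes, because the members of each pair are compared below: Ly6c2 with its near-identical copy Ly6c1, Lyz2 with its copy Lyz1, and C1qb with C1qc, which varied together between libraries. The sequences are from RefSeq (GRCm38.p6), are written 5′ to 3′ on the strand of the gene and end before the first transcribed base of the annotations used. Capitals mark AGGAAGT or its reverse complement ACTTCCT, a motif bound by ETS factors such as PU.1, a regulator of myeloid genes.
Ly6c2 (chr15:75111972-75112221, minus strand): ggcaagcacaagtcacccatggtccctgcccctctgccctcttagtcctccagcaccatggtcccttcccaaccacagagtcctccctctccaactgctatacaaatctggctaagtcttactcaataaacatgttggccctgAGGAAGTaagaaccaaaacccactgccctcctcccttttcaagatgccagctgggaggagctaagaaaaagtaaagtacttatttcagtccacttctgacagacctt
Ly6c1 (chr15:75048838-75049087, minus strand): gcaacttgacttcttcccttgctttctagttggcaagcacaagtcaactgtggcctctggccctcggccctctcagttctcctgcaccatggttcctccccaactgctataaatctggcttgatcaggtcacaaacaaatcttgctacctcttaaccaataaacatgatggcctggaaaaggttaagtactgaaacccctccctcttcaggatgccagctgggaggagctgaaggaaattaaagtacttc
Lyz2 (chr10:117282322-117282522, minus strand): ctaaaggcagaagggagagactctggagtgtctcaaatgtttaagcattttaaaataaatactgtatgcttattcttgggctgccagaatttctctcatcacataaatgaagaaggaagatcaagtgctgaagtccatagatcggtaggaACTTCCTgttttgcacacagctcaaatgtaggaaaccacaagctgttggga
Lyz1 (chr10:117292869-117293118, minus strand): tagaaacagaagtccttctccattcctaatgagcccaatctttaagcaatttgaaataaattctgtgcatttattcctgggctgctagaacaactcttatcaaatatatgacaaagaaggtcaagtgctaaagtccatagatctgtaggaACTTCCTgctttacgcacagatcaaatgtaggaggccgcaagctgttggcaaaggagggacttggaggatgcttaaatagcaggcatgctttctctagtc
C1qb (chr4:136886201-136886450, minus strand): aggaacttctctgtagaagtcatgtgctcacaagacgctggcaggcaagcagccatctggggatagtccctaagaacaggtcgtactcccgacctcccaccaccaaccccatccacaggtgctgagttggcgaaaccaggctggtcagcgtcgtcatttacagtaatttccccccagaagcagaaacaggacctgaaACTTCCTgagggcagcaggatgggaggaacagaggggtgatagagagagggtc
C1qc (chr4:136893066-136893164, minus strand): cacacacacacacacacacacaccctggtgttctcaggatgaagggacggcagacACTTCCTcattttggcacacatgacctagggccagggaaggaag
The motif occurred once in 5 of these 6 windows and not in that of Ly6c1. Among the 32851 upstream windows of 250 bases in the RefSeq table, 7.69% held it on either strand; the Lyz2 and C1qc windows are shorter, at 201 and 99 bases. It was not found in the windows of F13a1, Ctss, Cd68 and Mertk. No upstream window was available here for Csf1r and C1qa, so neither motif was searched for in them. The C/EBP-type motif TTNNGCAA, searched on both strands, was found in 9.56% of all windows and, among the members searched, in Cd68; the Lyz1 window also held it. The best local alignment matched Ly6c2 and Ly6c1 at 164 of 215 aligned bases (76.3%) and Lyz2 and Lyz1 at 135 of 163 (82.8%). A match of letters is a description of the sequence and was not tested for binding.

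The libraries held 46067511 to 54953145 reads assigned to genes, and 22640 to 23052 genes had reads in each. Phf6 itself had normalised read counts of 5508, 4240 and 5075 in WT libraries 1 to 3 and 1781, 2337 and 1755 in KO libraries 1 to 3. A normalised read count is the number of reads of a gene divided by a size factor of its library. Every KO value of Phf6 lay below every WT value (log2 fold change -1.34, limma adjusted p = 0.00184). T-lineage genes were abundant in all libraries, with Cd3e between 16560 and 21008 normalised reads. WT library 2 was the nearest of its group to the KO libraries along the leading principal component (53.1% of the variance). Of 17993 genes tested, 957 rose and 618 fell in KO (limma, Benjamini-Hochberg adjusted p under 0.05). The split was 1217 and 300 with library totals as the scaling and 1051 and 406 with upper quartile scaling.

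The 6 monocyte genes were higher in all KO libraries than in any WT library, and the 4 resident macrophage genes were not. Of the 6 monocyte genes, 5 rose (Ly6c2, F13a1, Ctss, Csf1r and Cd68) and 1 (Lyz2) did not pass the test. Over all genes tested, 5.32% rose, 3.43% fell and 8.75% were called in either direction. These shares are the background for the limma counts, with all libraries, of every gene list below. None of the 4 resident macrophage genes was called by limma, edgeR or DESeq2, where 8.75%, 8.16% and 12.4% of all genes were, and 0 of the 4 had an unadjusted p under 0.05 with any of these tools. The median log2 fold change was 1.81 over the monocyte genes and -0.07 over the resident macrophage genes, against -0.01 over all genes tested. All 3 KO values exceeded all 3 WT values for 6 of 6 monocyte genes and 0 of 4 resident macrophage genes. Of all genes tested, 15.0% had that order and the groups of 31.2% did not overlap in either direction. For 4 genes, 0 is near these shares and says little about resident macrophage genes in general. Of 21 other resident macrophage genes tested, described below, 10 had all KO values above all WT values.

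**Figure D1:**
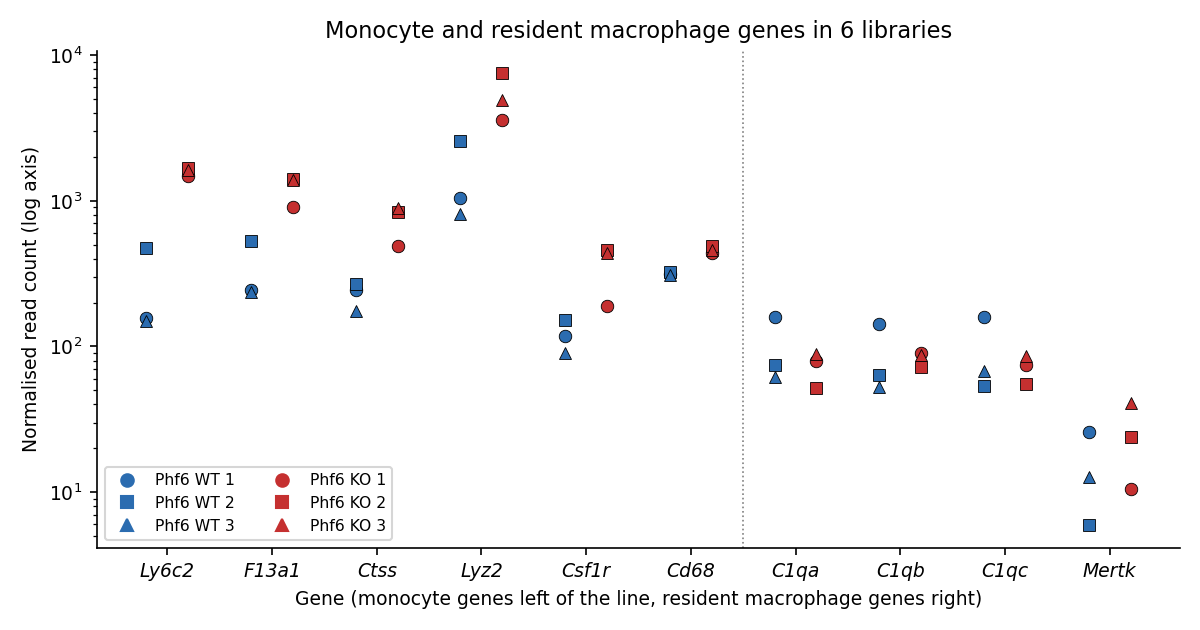
Normalised read counts (vertical log axis) of the 10 genes in each library, with blue symbols for Phf6 WT, red symbols for Phf6 KO and the symbol shape for the replicate number. The red symbols stand above the blue ones for the 6 genes left of the dotted line, and the colours are mixed for the 4 genes right of it, where the circle of WT library 1 is the highest WT symbol.

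Ly6c2 (ENSMUSG00000022584; GRCm38 chromosome 15, 75108158 to 75111970, minus strand, protein coding) encodes the Ly6C antigen by which classical mouse monocytes are recognised. It had normalised read counts of 157, 476 and 149 in WT libraries 1 to 3 and of 1488, 1689 and 1618 in KO libraries 1 to 3. The KO libraries lay within a narrow band, WT library 2 stood about midway between them and the other WT libraries on a log scale, and the groups did not overlap. The means were 261 ± 186 and 1598 ± 102 (SD, n = 3 each), and the rise of 2.82 ± 0.47 on the log2 scale (SE) was the largest of the 10 genes (limma, adjusted p = 0.0251). Its copy Ly6c1, on the same chromosome at 75044018 to 75048830, had 369, 320 and 230 reads in WT and 239, 322 and 354 in KO. The Ly6c1 groups overlapped, with a log2 fold change of -0.00 ± 0.21 (SE). The ratio of Ly6c2 to Ly6c1 was 0.43, 1.49 and 0.65 in WT and 6.23, 5.25 and 4.57 in KO, so the copies parted in every KO library. The longest protein-coding transcripts of the copies are 97.6% identical over 822 aligned bases. Of the 673 windows of 150 bases in the Ly6c2 transcript, 39 (5.79%) also occur in Ly6c1. For exact matches over 150 bases, a small share of reads from this transcript could thus come from either gene. Shorter matches, or matches with errors, would be shared more often.

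F13a1 (ENSMUSG00000039109; chromosome 13, 36867178 to 37050244, minus strand) encodes the A subunit of coagulation factor XIII, a transglutaminase that crosslinks fibrin and that monocytes make in quantity. Its normalised read counts were 242, 526 and 236 in WT and 904, 1417 and 1386 in KO. The lowest KO library stood above WT library 2, the highest in WT. It rose by 1.95 ± 0.35 on the log2 scale (SE; limma, adjusted p = 0.0219). Of the other transglutaminase genes, 4 were tested and none was called (limma; median log2 fold change 0.43). F13a1 shares 74 exonic bases with Gm30489, an antisense gene, and the sources used here do not state how the counting treated strand.

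Ctss (ENSMUSG00000038642; chromosome 3, 95526786 to 95556403, plus strand) encodes cathepsin S, a lysosomal cysteine protease that trims the invariant chain of MHC class II. It had 245, 267 and 174 normalised reads in WT and 487, 838 and 899 in KO. KO library 1 was the lowest of its group and still exceeded every WT library. The rise of 1.66 ± 0.25 on the log2 scale (SE) had the smallest adjusted p among the 10 genes (limma, 0.00768). Of 18 other cathepsins and cathepsin inhibitors tested, 5 rose and none fell (median log2 fold change 0.23). They were Ctsl (0.92), Ctsw (1.03), a protease gene of cytotoxic lymphocytes, Cst3 (0.57), which encodes cystatin C, an inhibitor of cathepsins, Ctsh (2.05) and Stfa3 (2.37), a stefin gene; the last 2 are named outside the naming rule because the count was small. Ctsb and Ctsd, which are widely expressed cathepsins, had log2 fold changes of -0.04 and 0.17 and were not called.

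Lyz2 (ENSMUSG00000069516; chromosome 10, 117277331 to 117282321, minus strand) encodes lysozyme M, the bactericidal enzyme of myeloid cells. Its normalised read counts were 1039, 2552 and 806.2 in WT and 3576, 7492 and 4941 in KO. The groups did not overlap, and both had a wide spread, with means of 1466 ± 948 and 5336 ± 1988 (SD, n = 3 each). The log2 fold change was 1.98 ± 0.55 (SE), the second largest of the 10 genes, and it missed the threshold (limma adjusted p = 0.111). It passed in DESeq2 (adjusted p = 0.0249) and in limma without WT library 2 (adjusted p = 0.0188), and it missed in edgeR (adjusted p = 0.141). Over its alternatives the adjusted p ran from 0.00674 to 0.307. Lyz1, the lysozyme gene of Paneth cells, which lies upstream of Lyz2, had 0.904 to 17.7 normalised reads per library and was too low to be tested. The transcripts are 96.0% identical, and none of the 1167 windows of 150 bases in Lyz2 occurs in Lyz1.

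Csf1r (ENSMUSG00000024621; chromosome 18, 61100598 to 61132149, plus strand) encodes the receptor for CSF1 and IL-34, the growth factors on which monocytes and macrophages depend. It had 117, 151 and 90.4 normalised reads in WT and 190, 456 and 438 in KO. KO library 1 was closer to WT library 2 than to the other KO libraries, and the groups did not overlap. It rose by 1.51 ± 0.35 on the log2 scale (SE; limma, adjusted p = 0.0367). Csf1r shares 873 exonic bases with Hmgxb3 on the opposite strand, which had 3079 to 3709 normalised reads per library and a log2 fold change of -0.16. Without a stated strand setting, reads in that overlap cannot be assigned to one gene. Pdgfrb, a receptor tyrosine kinase gene that ends 15.5 kb upstream of Csf1r, had 31525 to 35732 normalised reads in WT and 41232 to 49190 in KO (a rise of 0.40 on the log2 scale; limma, adjusted p = 0.0308).

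Of the other genes of the CSF1 receptor axis, 12 were tested, 3 rose and 1 fell (median log2 fold change 0.35). Spi1, which encodes the myeloid factor PU.1, had 96.1, 236 and 94.0 normalised reads in WT and 577, 743 and 603 in KO. The groups did not overlap, and the rise was 2.29 on the log2 scale (limma adjusted p = 0.00964). Plcg2 and Gab2, for a phospholipase and an adaptor in receptor signalling, rose by 1.796 and 1.49. Runx1, a transcription factor of both lymphoid and myeloid development, fell by 0.55. The ligand gene Csf1 had 6.33 to 39.5 normalised reads per library and was not called, and the factors Cebpa, Cebpb, Irf8 and Klf4 were not called either, with log2 fold changes of 1.16, 0.23, -0.16 and 0.48.

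Cd68 (ENSMUSG00000018774; chromosome 11, 69664213 to 69666153, minus strand) encodes macrosialin, a glycoprotein of lysosomal membranes in mononuclear phagocytes. Its normalised read counts were 313, 323 and 310 in WT and 440, 489 and 460 in KO. Both groups were tight, without overlap, and the rise of 0.55 ± 0.12 on the log2 scale (SE; limma, adjusted p = 0.0260) was the smallest of the 5 that passed. The WT mean was 315 ± 6.7 and the KO mean 463 ± 24.6 (SD, n = 3 each). Of 16 other lysosomal membrane and scavenger genes tested, 3 rose and none fell (median log2 fold change 0.14). These were Cd63 (2.14), a tetraspanin gene, Hexa (0.80), for a lysosomal hexosaminidase, and Msr1 (1.81), the macrophage scavenger receptor gene, while Lamp1 and Lamp2 had log2 fold changes of 0.20 and -0.10 and were not called.

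C1qa, C1qb and C1qc encode the 3 chains of C1q, the recognition molecule of the classical complement pathway, and lie side by side on chromosome 4 (minus strand, C1qb at 136880129 to 136886187, C1qc at 136889804 to 136893065 and C1qa at 136895917 to 136898803). C1qa (ENSMUSG00000036887) had 158, 74.1 and 61.5 normalised reads in WT and 79.3, 51.9 and 89.3 in KO. C1qb (ENSMUSG00000036905) had 143, 63.2 and 52.4 in WT and 89.7, 72.7 and 87.3 in KO. C1qc (ENSMUSG00000036896) had 160, 53.3 and 67.8 in WT and 75.1, 55.0 and 86.3 in KO. For each chain WT library 1 was the highest of all 6 libraries. The KO values of C1qa and C1qc overlapped with WT libraries 2 and 3, and those of C1qb lay between these 2 libraries and WT library 1. The log2 fold changes were -0.32 for C1qa (95% interval -1.12 to 0.49), 0.08 for C1qb (-0.69 to 0.85) and -0.23 for C1qc (-1.10 to 0.64), with limma adjusted p values of 0.633, 0.908 and 0.761. Their signs are not stable. Without WT library 1, C1qa was at 0.085 and C1qc at 0.23, and C1qb turned negative in edgeR (-0.027), in DESeq2 (-0.033), without WT library 2 (-0.07) and without WT library 3 (-0.20). With all libraries the intervals of the 3 chains lie below the rise of Ctss (1.66). Those of C1qb and C1qc include a rise as small as that of Cd68 (0.55), and that of C1qa does not. The ratio of C1qa to C1qb was 1.10, 1.17 and 1.17 in WT and 0.88, 0.71 and 1.02 in KO, without overlap; this ratio was not tested. C1qa to C1qc and C1qb to C1qc overlapped between the groups.

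Mertk (ENSMUSG00000014361; chromosome 2, 128698956 to 128802894, plus strand) encodes a receptor tyrosine kinase of the TAM family through which macrophages bind and take up apoptotic cells. Its normalised read counts were 26.0, 5.93 and 12.7 in WT and 10.4, 23.9 and 41.1 in KO. The groups overlapped, the spread within each was as wide as the distance between them, and 6 to 41 reads per library lay behind these values. The log2 fold change was 0.70 (95% interval -0.57 to 1.97; limma, adjusted p = 0.485), and this interval includes a rise as large as that of Ctss. Of 13 other genes of the TAM receptors and apoptotic cell uptake, 2 rose and none fell, the list's median on the log2 scale being 0.16. They were Dock1 (1.92), an activator of Rac in engulfment, and Lrp1 (0.73), an endocytic receptor gene. The other TAM receptor genes Axl and Tyro3 had log2 fold changes of -0.12 and -0.51 and were not called.

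Of the other classical complement genes, 10 were tested, 1 rose and none fell (median log2 fold change 0.70). The gene that rose was C3, the central complement component, which had 262, 503 and 351 normalised reads in WT and 1122, 996 and 1132 in KO. The groups did not overlap, and the log2 fold change was 1.59 (limma adjusted p = 0.00453). C1ra, a protease gene of the C1 complex, had a log2 fold change of 1.06 and C5ar1, a receptor for the C5a fragment, of 1.57, and neither was called (limma adjusted p = 0.0793 and 0.0591).

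**Figure D2:**
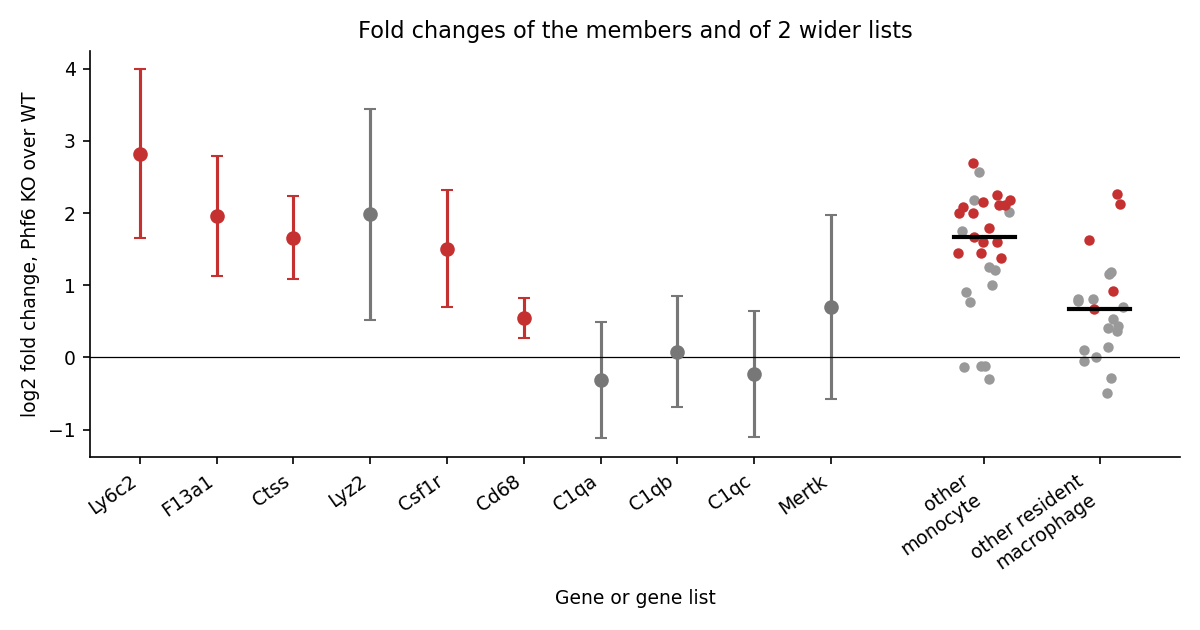
Log2 fold change of Phf6 KO over WT (vertical axis) for the 10 genes with 95% intervals, and for each tested gene of the 2 wider lists, where the black bar is the median (1.67 for other monocyte genes, 0.67 for other resident macrophage genes). Red marks genes that rose in the test and grey those not called; the intervals of C1qa, C1qb, C1qc and Mertk include 0.

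A contrast of the sets within each library rests little on the scaling between libraries. The mean log2 value of the monocyte genes, with 2 added to each normalised read count, was 8.07, 8.82 and 7.84 in WT and 9.58, 10.26 and 10.14 in KO. That of the resident macrophage genes was 6.66, 5.26 and 5.44 in WT and 5.69, 5.63 and 6.22 in KO. The monocyte mean exceeded the macrophage mean by 1.41, 3.56 and 2.41 in WT and by 3.89, 4.63 and 3.92 in KO on the log2 scale. All KO differences lay above all WT differences, and WT library 2 came closest to them. The group means of the difference were 2.46 ± 1.08 and 4.15 ± 0.42 (SD, n = 3 each), which are 1.69 apart. Because the genes were chosen with results of these data known, no test was made of this contrast. Without WT library 1 the groups were 1.16 apart and without WT library 2 they were 2.24 apart.

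**Figure D3:**
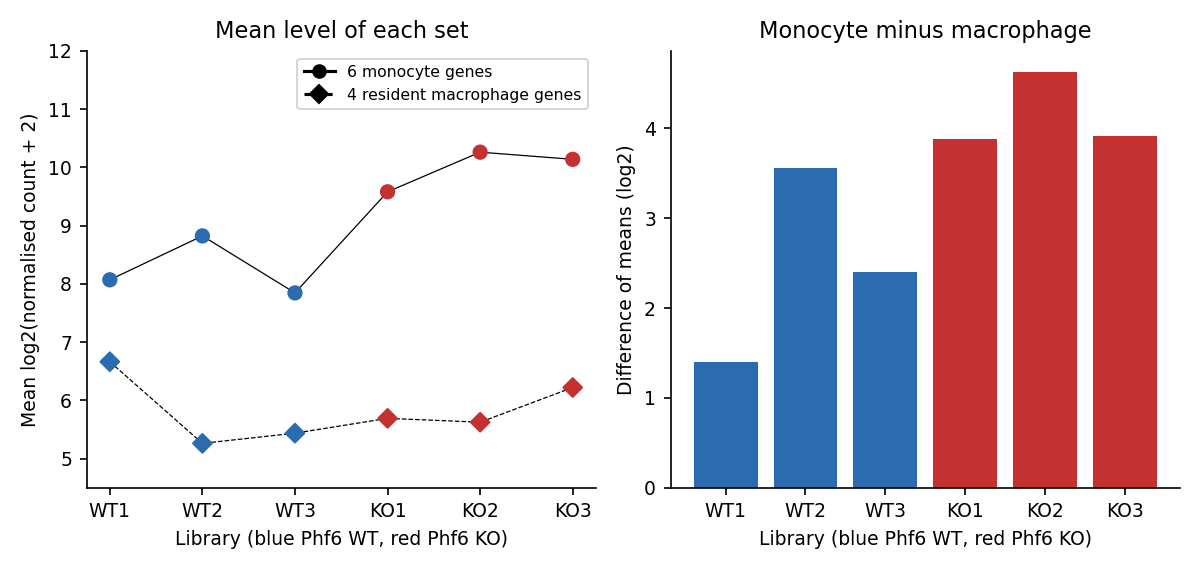
Left, mean log2(normalised read count + 2) of the 6 monocyte genes (circles, solid line) and the 4 resident macrophage genes (diamonds, dashed line) in each library; right, the difference of the means as bars from 0. The difference is 1.41 to 3.56 in the WT libraries (blue) and 3.89 to 4.63 in the KO libraries (red), and lines join libraries only to guide the eye.

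Ratios of single genes separated the groups for Ly6c2, Ctss, Cd68 and Csf1r over C1qa, and not for Ctss over Mertk. C1qa had the lowest log2 fold change of the C1q chains (-0.32). Over C1qb or C1qc in its place, the ratios of Ly6c2 and Ctss still separated the groups, and those of Cd68 and Csf1r overlapped. Ly6c2 stood at 0.99, 6.43 and 2.43 times C1qa in WT and at 18.8, 32.5 and 18.1 times in KO. The ratio of Ctss to C1qa was 1.55, 3.60 and 2.84 in WT and 6.14, 16.1 and 10.1 in KO. That of Cd68 to C1qa, with WT library 3 at 5.04 and KO library 3 at 5.16, barely separated the groups. Against Mertk, Ctss stood at 9.42, 45.0 and 13.8 in WT and 46.7, 35.1 and 21.9 in KO, where the groups overlapped.

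Levels of different genes were compared per length, as RPKM, the recovered reads divided by the length of the longest protein-coding transcript and by the library total. In WT, Lyz2 was the highest at 21.8 ± 13.8 RPKM, followed by Ly6c2 at 6.21 ± 4.35, Cd68 at 5.05 ± 0.06 and Ctss at 3.32 ± 0.64 (SD, n = 3). Below them came C1qa at 1.85 ± 0.98, F13a1 at 1.66 ± 0.80, C1qb at 1.56 ± 0.89 and C1qc at 1.53 ± 0.94, whose order is within their spread. Csf1r at 0.50 ± 0.12 and Mertk at 0.068 ± 0.047 were lowest. In KO the order began with Lyz2 at 84.4 ± 30.1 and Ly6c2 at 40.6 ± 2.6, then Ctss at 11.4 ± 3.5, Cd68 at 7.86 ± 0.37 and F13a1 at 6.53 ± 1.54. Csf1r at 1.61 ± 0.66 RPKM was then level with the C1q chains, at 1.60 ± 0.20 for C1qb, 1.48 ± 0.42 for C1qa and 1.26 ± 0.30 for C1qc, and Mertk was again lowest at 0.12 ± 0.08. The WT mean of F13a1 was thus among those of the C1q chains, although F13a1 lay below each chain in WT1 and above each in WT2 and WT3. In every KO library F13a1 lay above each of the chains. With the length of all annotated exons in place of the transcript, 5 of the 10 ranks changed in WT and 3 in KO, and Ly6c2 moved from rank 2 to rank 4 in WT.

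**Figure D4:**
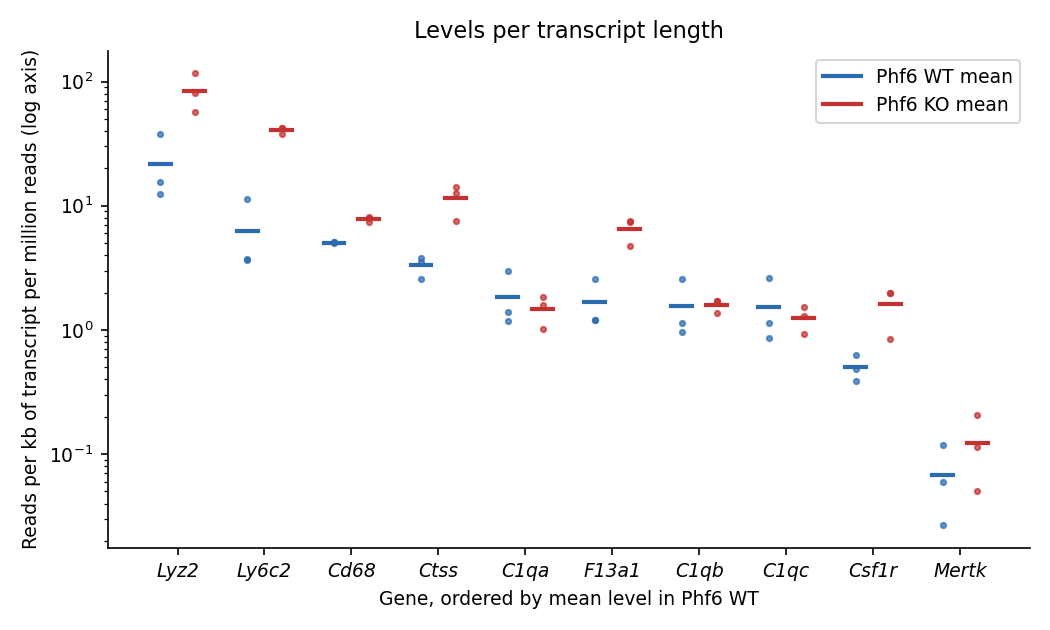
Level per length (RPKM, vertical log axis) of the 10 genes in the order of their WT means, with a point for each library and a bar for each group mean (blue Phf6 WT, red Phf6 KO). The bars of C1qa, C1qb and C1qc lie between 1.26 and 1.85 RPKM in both groups, and the red bars of F13a1 and Ctss lie above the blue ones by more than the spread of the points.

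Among the WT libraries the sets peaked in different ones. WT library 2 was the highest WT library for 6 of 6 monocyte genes, and WT library 1 was the highest for 4 of 4 resident macrophage genes. Over all genes tested, WT library 1 was the highest WT library for 33.1%, library 2 for 40.8% and library 3 for 26.1%. Across the 6 libraries, pairs of monocyte genes correlated at a Pearson r of 0.89 to 0.99 on the log2 scale, and pairs of C1q chains at 0.87 to 0.93. Pairs of 1 monocyte gene and 1 C1q chain ranged from -0.46 to 0.15. Mertk correlated with the C1q chains at 0.30 to 0.51 and with the monocyte genes at 0.22 to 0.56, so it did not follow the C1q chains more closely. These are descriptions over 6 libraries of 2 groups, with no test, and any 2 genes that differ between the groups correlate for that reason alone.

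**Figure D5:**
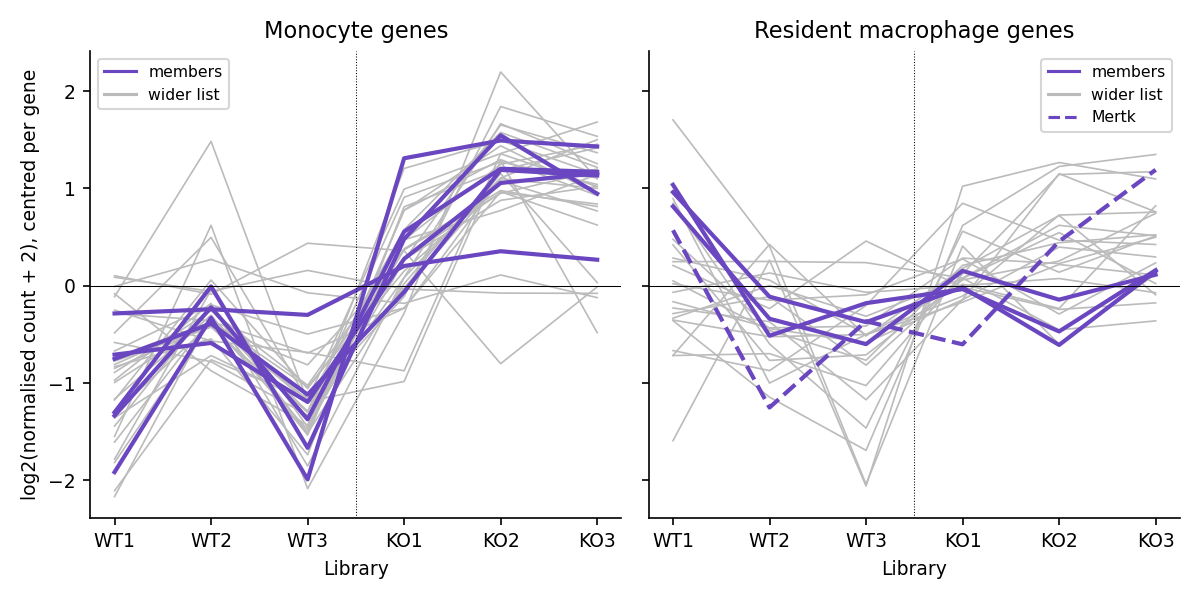
Log2(normalised read count + 2) of each tested gene, centred on its own mean over the 6 libraries; purple lines are the members (Mertk dashed), grey lines the genes of the wider lists, and the dotted line parts WT from KO. Monocyte members lie above 0 in the KO libraries apart from Csf1r in KO1, which is just below, while the C1q chains have their highest point in WT1.

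A wider list of 30 monocyte genes and another of 24 resident macrophage genes, all outside the members, were then described in the same fit; the difference between the lists was not tested. Of 29 other monocyte genes tested, 16 rose and none fell (median log2 fold change 1.67), and all KO values lay above all WT values for 21. Among all genes tested, 5.32% rose and 15.0% had all KO values above all WT values. The smallest p values belonged to Cd300lf, an inhibitory receptor gene (2.69), Fcgr3, a low-affinity Fc receptor gene (2.08), Itgam, which encodes the integrin CD11b (1.38), and Fcer1g, the signalling chain of Fc receptors (2.00). Cd300lf had 24.0, 64.2 and 47.9 normalised reads in WT and 221, 286 and 358 in KO. Over the list, 25 log2 fold changes were positive and 4 negative. The negative ones were those of Nr4a1 (-0.12), the nuclear receptor gene of the patrolling subset, Spn (-0.12), Ace (-0.30) and Plac8 (-0.13), each of which overlapped between the groups and was not called. Per library Nr4a1 had 16080 to 102687 normalised reads, Spn 13048 to 15367, Ace 1256 to 2964 and Plac8 17491 to 23922. Which cells expressed these 4 genes was not tested. Further genes of the monocyte subsets, named like these after their values were seen, differed in their calls. Treml4 (1.59) and Fcgr4 (1.45), genes of the patrolling subset, rose. Ccr2, the chemokine receptor by which classical monocytes leave the marrow, had 196, 254 and 114 normalised reads in WT and 334, 753 and 883 in KO and was not called (log2 fold change 1.75; limma, adjusted p = 0.0668). Its groups did not overlap, whereas those of Cx3cr1, a receptor gene of the patrolling subset that was not called either, did (log2 fold change 0.77).

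Among all genes tested, 5.32% rose, 15.0% had all KO values above all WT values and 31.2% did not overlap in either direction. Of 21 other resident macrophage genes tested, 5 rose and none fell (median log2 fold change 0.67), and all KO values lay above all WT values for 10 and below them for 1. The latter was Slc40a1, the iron exporter gene, which had 601, 601 and 596 normalised reads in WT and 534, 369 and 393 in KO (log2 fold change -0.49) and was not called by limma. It fell in DESeq2, where 6 of the 21 rose, and in limma without KO library 1, where 4 rose. Abca1, a cholesterol exporter gene, had 44.0, 24.7 and 16.3 normalised reads in WT and 88.7, 136 and 148 in KO (log2 fold change 2.13; limma adjusted p = 0.00803). Maf, a transcription factor gene of macrophages that lymphocytes also use, rose by 1.63, Cfp, the gene of the complement regulator properdin, by 0.67 and Trem2, a lipid receptor gene, by 2.26. Gpnmb, a lysosomal glycoprotein gene, rose by 0.92 and completes the 5. WT library 1 was the highest WT library for 12 of the 21, as it was for the C1q chains. Vcam1 (232 normalised reads in WT library 1 against 83.9 and 45.2 in the others), Mrc1 (134 against 34.6 and 49.7) and Fcna (49.0 against 18.8 and 1.81), named after their values were seen, are examples, and none of the 3 was called between the groups. Adgre1 had 47.0, 42.5 and 23.5 in WT and 50.1, 126 and 95.3 in KO. Cd163 had 81.1, 56.3 and 45.2 in WT and 90.8, 107 and 113 in KO. Both also peaked in library 1 among WT, yet every KO value of each lay above every WT value. Neither was called (log2 fold change 1.18 and 0.78). Spic, Cd5l and Folr2, genes of red pulp and other resident macrophages, had at most 17.02 normalised reads in any library.

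The summed normalised reads of 23 neutrophil marker genes were 7932, 28761 and 12642 in WT and 76539, 81929 and 62055 in KO, so the groups did not overlap and WT library 2 was again the highest WT library, as for 22 of the 23 genes singly. Of the 23, 10 rose and none fell, the list's median on the log2 scale being 2.28. With edgeR 6 were called and with DESeq2 21, all of them rises. Among all genes tested, 5.32% rose in limma, and edgeR and DESeq2 called 8.16% and 12.4% in either direction. Csf3r, the receptor gene for G-CSF (1.71), Cxcr2, a chemokine receptor gene (1.76), Ms4a3, a gene of granulocyte-monocyte progenitors (2.96), and Fcnb, for a ficolin (2.28), had the smallest p values, and Ly6g, which defines mature neutrophils, had 2.00 to 16.8 normalised reads per library. Chil3 is in both the neutrophil and the monocyte list. The part of neutrophil transcripts in the rise of the monocyte genes was not tested. In bulk RNA a larger number of cells of a type and more RNA per cell cannot be told apart.

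For the remaining cell types, 6 of 8 B cell markers rose, among them Pax5 (2.71), Blk (2.48), Blnk (1.51) and Ms4a1 (3.10), and their summed normalised reads were 145 to 209 in WT and 315 to 763 in KO. Of 6 dendritic cell markers 2 rose, Ccr9 (1.42), which T-lineage cells also express, and Flt3 (1.47), and Bst2 fell by 0.37. Of 3 markers of basophils, mast cells and eosinophils 2 rose (Gata2 by 1.82 and Mcpt8 by 2.998), and of 3 megakaryocyte markers 1 rose (Selp, 1.49). None of 9 erythroid markers was called. Of 5 stromal and endothelial markers Pdgfrb rose and Col1a1 fell by 1.21. Which cells expressed Pdgfrb, at 31525 to 49190 normalised reads per library, was not tested. Of 12 T-lineage markers 3 fell (Cd247 by 0.57, Cd5 by 0.48 and Tcf7 by 0.49), and 9 log2 fold changes were negative and 3 positive. The T-lineage markers summed to 387986, 380168 and 393423 normalised reads in WT and 363803, 322900 and 321909 in KO, without overlap. Of 5 other genes of the Ly6 family tested, none was called, with log2 fold changes of 0.53 for Ly6a, -0.15 for Ly6e and -0.50 for Ly6d.

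The calls depended on single libraries, while the direction of the monocyte genes did not. The number of monocyte genes that rose was 6 without WT library 2, when 6.50% of all genes rose, and 3 without KO library 1 (F13a1, Ctss and Csf1r), when 3.49% did. It was 1 (Ctss) without WT library 1, without WT library 3 and without KO library 2, when 2.12%, 2.79% and 3.04% of all genes rose, and 0 without KO library 3, when 0.766% did. In that last case Ctss had an adjusted p of 0.0605 (limma) and a log2 fold change of 1.497. Over these 6 fits the log2 fold change ran from 2.53 to 3.36 for Ly6c2, from 1.76 to 2.33 for F13a1, from 1.48 to 1.94 for Ctss, from 1.64 to 2.47 for Lyz2, from 1.29 to 1.92 for Csf1r and from 0.51 to 0.59 for Cd68. The count of other monocyte genes that rose was 7 without WT library 1, 10 without WT library 3 or KO library 2, 21 without KO library 1 and 1 without KO library 3. That of other resident macrophage genes was 0 to 5 over the same fits (1 without WT library 3, 2 without WT library 1, 3 without KO library 2 and 0 without KO library 3), and that of neutrophil markers was 2 to 21 (21 of 22 without WT library 2, 2 without WT library 3 or KO library 3, 4 without KO library 1 or KO library 2, and 5 without WT library 1).

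The genes whose pattern was most like the mean of the monocyte genes were sought among 11031 genes by Pearson correlation over the 6 libraries. They were Irf5, a transcription factor gene of myeloid cells (r = 0.9998), Lgals3, which encodes galectin 3 (0.9995), Calml4 (0.999), Adap1 (0.998) and Tgfbi (0.998). Irf5 had 64.1, 112 and 52.4 normalised reads in WT and 193, 335 and 306 in KO, with the step between the groups and the higher value of WT library 2. It was picked for that pattern. In all, 335 candidates exceeded an r of 0.95 with the monocyte genes. For the mean of the C1q chains 2 did, Tnks1bp1 (r = 0.976) and Tas1r3 (0.9503), followed by Zscan2 (0.944), Specc1l (0.943) and Med15 (0.938). Tnks1bp1 had 2594, 2032 and 2006 normalised reads in WT and 2158, 1988 and 2103 in KO, so its range was narrow beside that of the C1q chains, and none of these 5 genes was called. All these genes were picked by their pattern in the same 6 libraries, so the likeness is no separate evidence.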

How the data were processed

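Per the submitters' processing notes, the tools were bcl2fastq 1.8.4, STAR 2.6.0a, featureCounts and DESeq2 with GRCm38; annotation, strand setting and filters: not given in the sources used here. The deposited table gives the authors' normalised signal, gene counts divided by size factors per library. All values (100% within 0.01) were whole multiples of the worth of 1 read, so reads were recovered; 8 rows without a gene (at most 0.00106% of reads) were left out. The main test was limma 3.58.1 (R 4.3.3; trend, robust) on log2(value + 2) for genes at 10 or more in at least 3 libraries, Benjamini-Hochberg adjusted over all of them. A fold change on this scale understates the change of low genes. The fit was tested on simulated data: 72 of 100 genes changed 2-fold and 38 of 100 changed 1.5-fold were recovered, and 14 of 124 calls were false. Positions and lengths are from GENCODE M21 (GRCm38).

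The members and all 18 other lists were chosen with earlier results of these data known. Named genes are the members, Phf6, neighbours and copies, up to 4 tested genes per list with the smallest p, and the 5 genes most like each pattern (mean of 1 CPM or more); every other named gene was chosen after its values were seen. Alternatives were scaling, filters, pseudocounts, edgeR 4.0.16 and DESeq2 1.42.0 on recovered reads, non-robust limma, a replicate block, each library left out and thresholds. Counts of the wider lists without each library, and exon lengths, were added after the data were seen. Figures used Python 3.11.15 and matplotlib 3.10.9, and alignments Biopython 1.88.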

Additional observations from a re-analysis of the deposited data

How the results depend on the processing

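Across scaling, filters, pseudocounts, tools, thresholds and left-out libraries, the 6 monocyte genes kept a positive log2 fold change. No resident macrophage gene that was tested was called, and Mertk was not tested under the filter of 1 CPM in 3 libraries. With 4 genes, and 8.75% of all genes called in the main fit, 0 calls say little about the set. The count of monocyte genes called, 5, was 1 at a threshold of 0.01 (Ctss) and 0 to 6 when each library was left out in turn. Lyz2 also passed in limma without robust empirical Bayes (adjusted p = 0.0234). The number of genes called in all, 1575, was 363 at a threshold of 0.01, 2705 at 0.1 and 191 to 1939 with a library left out. The signs that reversed were those of C1qa (0.085) and C1qc (0.23) without WT library 1, and of C1qb in edgeR (-0.027), in DESeq2 (-0.033), without WT library 2 (-0.07) and without WT library 3 (-0.20); the cause was not tested. With each library left out in turn, C1qa ran from -0.58 to 0.085, C1qb from -0.20 to 0.51, C1qc from -0.54 to 0.23 and Mertk from 0.25 to 1.17. Without WT library 1 all 4 were positive, at 0.085 for C1qa, 0.51 for C1qb, 0.23 for C1qc and 1.16 for Mertk, and none was called. Deviations of same-numbered libraries correlated at 0.01, 0.50 and 0.14, and KO library 1 correlated best with WT library 3 (0.38), so the numbers are not taken as pairs. With the replicate block 2568 genes were called (1459 rose, 1109 fell), with 6 monocyte genes among them and a Lyz2 adjusted p of 0.00674. With the length of all annotated exons, 5 ranks by level changed in WT and 3 in KO. Depth limits Mertk most, at 6 to 41 reads per library, and the C1q chains had 50 to 160.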
